A study of Homo sapiens with 8 samples.

Results

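Axon guidance ligands and receptors were followed in A172 cells, an established human glioblastoma line, on Affymetrix Human Gene 2.0 ST arrays. The genes were taken by symbol: Slits, netrins, ephrins, Eph receptors, plexins, neuropilins and the UNC5 receptors. This rule found 45 transcript clusters, each of a different gene, among the 16098 clusters that have exactly 1 gene symbol in the annotation used. They were 17 ligands (3 SLIT, 6 NTN and 8 EFN genes) and 28 receptors (9 PLXN, 2 NRP, 4 UNC5 and 13 EPH genes). Roundabout receptors and semaphorins were not analysed here. The A172 cells carried a Tet-on pLKO lentiviral vector with either a control shRNA (shControl) or an shRNA against HDAC2 (shHDAC2). They were kept without doxycycline, DOX(-), or received it for the last 2 days before harvest, DOX(+), to switch the shRNA on. Each of the 4 groups had 2 biological replicates, 8 arrays in all. Each construct was carried by its own infected culture, so the construct and the culture cannot be told apart.

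Guidance cues are secreted or membrane-bound proteins that attract or repel migrating cells and growing axons. Slits act through Roundabout receptors, netrins through DCC and the UNC5 receptors, and class 3 semaphorins through neuropilins paired with plexins. Ephrins and Eph receptors meet on touching cells and signal in both directions. In glioma the same systems are known from work on invasion and on the tumour vessels, where neuropilins also bind VEGF.

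HDAC2, the class I histone deacetylase that the shRNA targets, gave log2 signals of 6.42 and 6.30 (shControl DOX(-)), 6.14 and 6.15 (shControl DOX(+)), 5.69 and 5.80 (shHDAC2 DOX(-)) and 4.95 and 5.34 (shHDAC2 DOX(+)). Both shHDAC2 groups lay below both shControl groups, and the shHDAC2 DOX(+) arrays were lowest. Upon doxycycline treatment HDAC2 fell by 0.60 on the log2 scale in shHDAC2 cells (SE 0.142, limma adjusted p = 0.0115). In shControl cells the change was -0.21 (adjusted p = 0.956), and the difference between both responses, -0.38, did not pass (adjusted p = 0.243). The call in shHDAC2 cells was lost without shHDAC2 DOX(-) replicate 2 (adjusted p up to 0.0724) and without shHDAC2 DOX(+) replicate 1. Without doxycycline HDAC2 was already 1.53-fold lower in shHDAC2 than in shControl cells (-0.61, SE 0.142, adjusted p = 0.0101), a call lost without shControl DOX(-) replicate 1 or shHDAC2 DOX(-) replicate 1 (adjusted p up to 0.0674). With doxycycline the difference was -0.999 (adjusted p = 0.00858), lost without any 1 of 3 of the 4 arrays compared (adjusted p up to 0.0686). A second HDAC2 cluster was dim, with group means from 2.32 to 2.42. For the shControl DOX(+) and shHDAC2 DOX(-) arrays 1 field of the sample labels names the other construct, and the groups follow the titles and the treatment field. If that field were right, the arrays of these groups would be exchanged, and every comparison below would have another meaning. The labels alone do not settle this. As titled, HDAC2 was lower in both shHDAC2 groups, whereas with these groups exchanged it would be lower in both DOX(+) groups.

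Arrays of untreated shHDAC2 cells differed from all others before any gene was singled out. Their correlation with arrays of other groups was 0.95 to 0.9538, against 0.982 to 0.9911 among the other 3 groups and 0.9855 to 0.9884 between replicates. The glioma markers VIM, NES, CD44, EGFR, GFAP and OLIG2 were above the median of all signals (3.658) in all 8 arrays. S100B and AQP4 were below it, and SOX2 ran from 3.499 to 4.25, on both sides of it. Of the neuronal markers (4 of 6 measured), MAP2 and 1 SYP cluster were above the median in all 8 arrays. STMN2, DCX and the other SYP cluster were below it. CD68, the 1 measured gene of 4 listed myeloid markers, reached 10.8 in both shHDAC2 DOX(-) arrays against 7.77 to 8.40 elsewhere. Endothelial markers (3 of 4 measured) averaged 3.23 to 3.46 in shHDAC2 DOX(-) and 2.68 to 3.23 elsewhere, with VWF and PECAM1 below the median everywhere. KDR, the remaining measured marker, ran from 2.686 to 4.159 over the 8 arrays, on both sides of the median. The part of these markers in the guidance values was not tested. In bulk RNA of the A172 line, a change in every cell and a change in part of the cells cannot be told apart.

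Many guidance genes differed between DOX(+) and DOX(-) shHDAC2 cells. Since the untreated arrays were the ones that stood apart from the other 3 groups, an effect of doxycycline and a difference of that untreated culture cannot be told apart. Of the 45 genes 24 passed an adjusted p of 0.05, against 30.6% of all 16098 clusters. SLIT2, UNC5C, PLXND1, EPHB4 and EPHA4 rose the most, and NRP2, EFNB2, NTNG1, EPHA5 and PLXNA4 fell the most. In total 15 rose (against 15.0% of all clusters) and 9 fell (against 15.6%). The median log2 fold change of the 45 genes was 0.121, and that of all clusters was -0.0143. Of the 34 guidance genes whose mean was at or above 3.658, 21 passed (61.8%), against 40.02% of all clusters that bright. In shControl cells 0 of the 45 genes passed, as did 0% of all clusters, and 6 guidance genes had an unadjusted p under 0.05 in limma (13.3%, against 5.39% of all clusters).

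**Figure D1:**
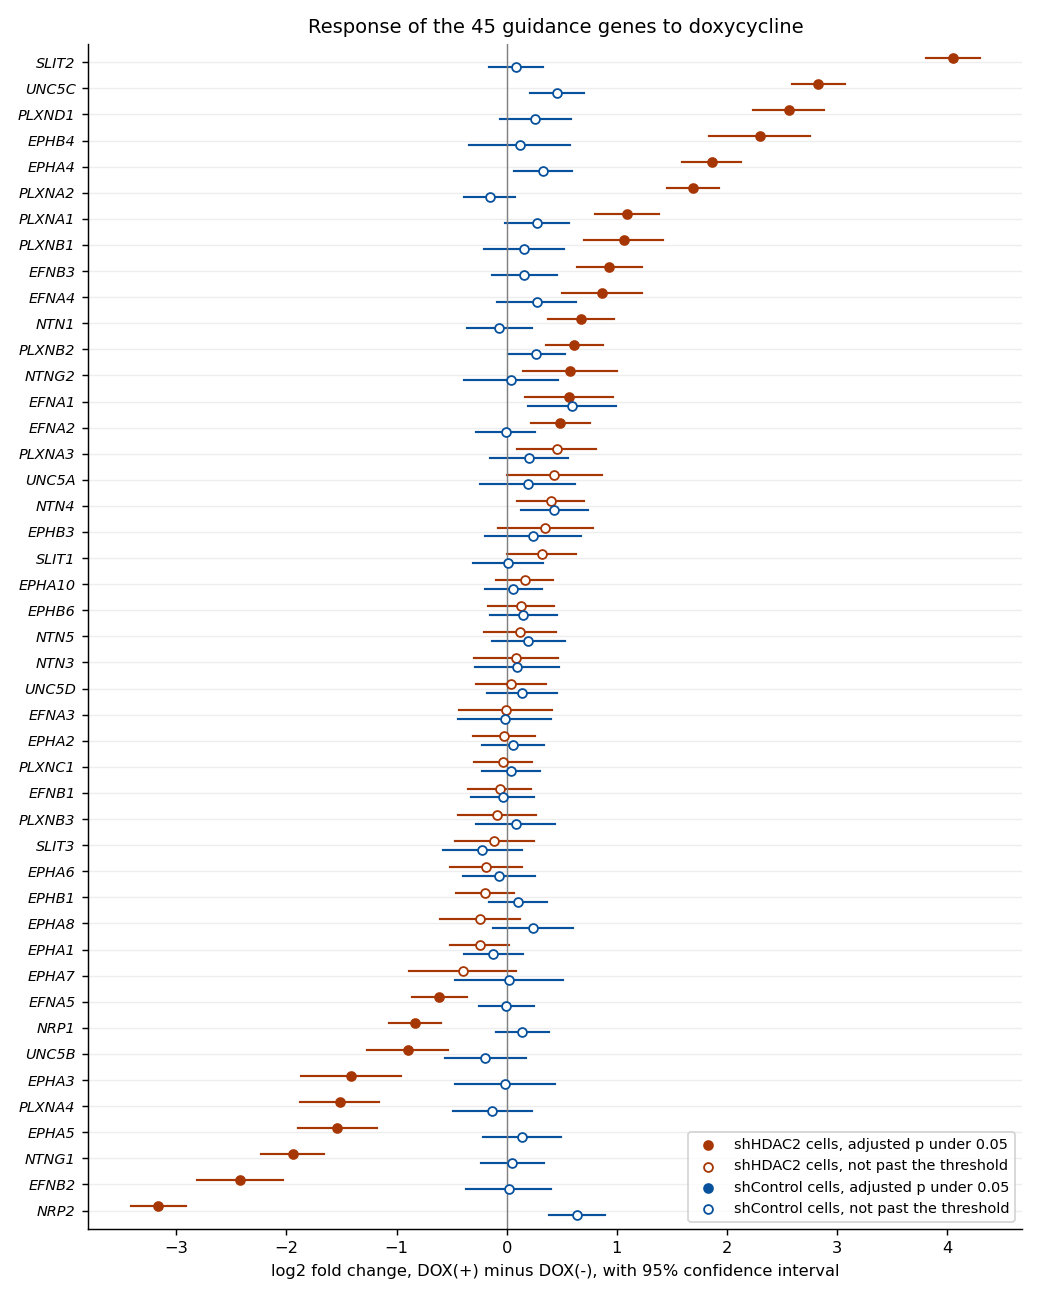
Log2 fold change upon doxycycline treatment (x axis, DOX(+) minus DOX(-)) of the 45 guidance genes in shHDAC2 cells (brown) and shControl cells (blue), as circles with 95% confidence intervals from limma, filled where the adjusted p was under 0.05. The shHDAC2 values run from -3.16 for NRP2 to 4.05 for SLIT2, while the shControl values stay between -0.22 and 0.64 and none is filled.

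The untreated shHDAC2 cells were the group that stood out. Both shHDAC2 DOX(-) arrays lay outside the range of the other 6 arrays for 27 of the 45 genes (against 40.3% of all clusters), above it for 9 and below it for 18. After doxycycline most of these genes had signals near those of the shControl arrays.

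**Figure D2:**
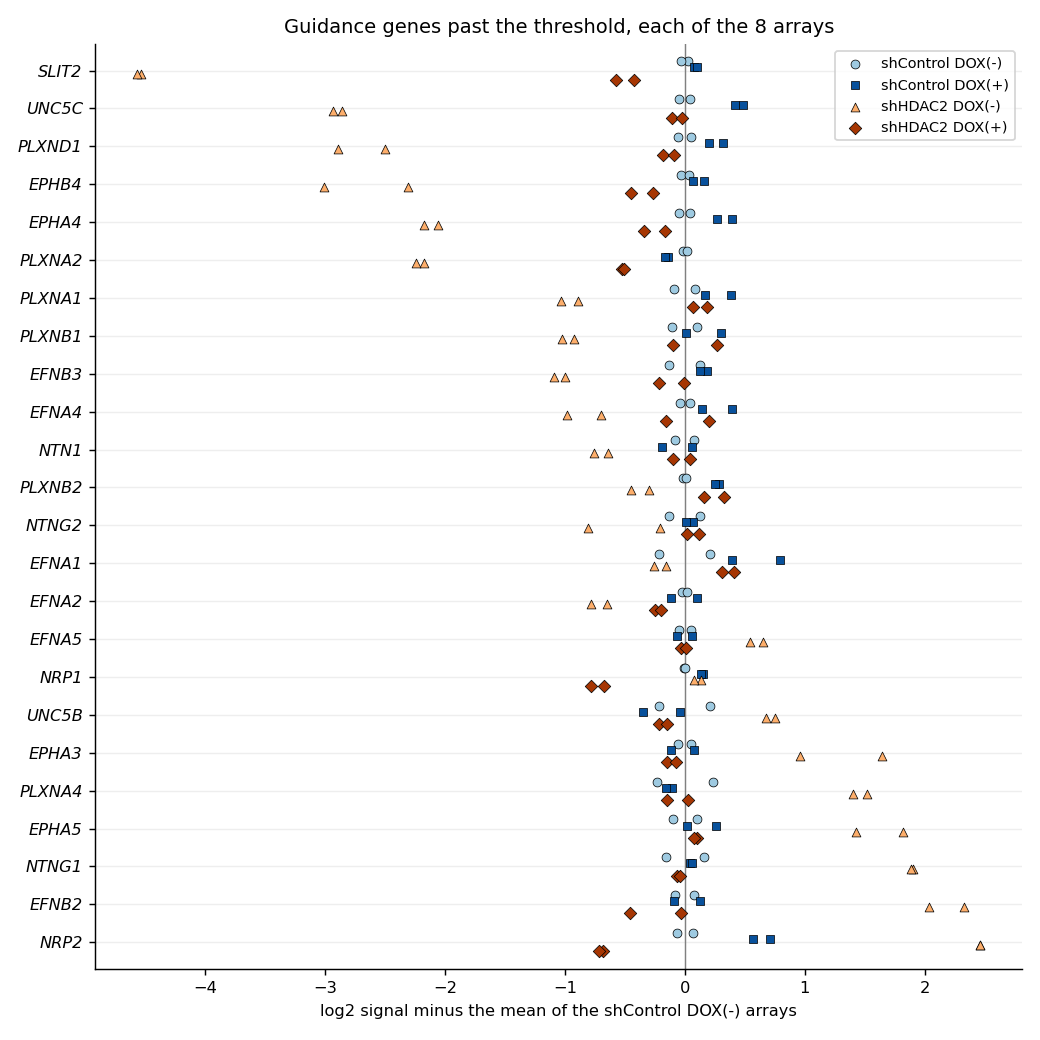
Log2 signal of each of the 8 arrays (x axis, relative to the mean of the shControl DOX(-) arrays) for the 24 guidance genes past the threshold, ordered by their response to doxycycline in shHDAC2 cells, with 1 marker shape and colour per group. The shHDAC2 DOX(-) triangles stand apart from the other 3 groups for most genes, whereas for NRP1 the shHDAC2 DOX(+) diamonds do.

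The promoters of the 3 genes that rose most and the 3 that fell most in shHDAC2 cells are shown, picked by the size of the change. They are the 250 bases before the start of the gene in RefSeq (GRCh38.p14), 5′ to 3′ on the gene's strand, with every GC box (GGGCGG on either strand, the letters bound by SP1) in capitals. The genes that rose were SLIT2 (chr4:20251655-20251904, plus strand), UNC5C (chr4:95548974-95549223, minus strand) and PLXND1 (chr3:129606677-129606926, minus strand).
SLIT2: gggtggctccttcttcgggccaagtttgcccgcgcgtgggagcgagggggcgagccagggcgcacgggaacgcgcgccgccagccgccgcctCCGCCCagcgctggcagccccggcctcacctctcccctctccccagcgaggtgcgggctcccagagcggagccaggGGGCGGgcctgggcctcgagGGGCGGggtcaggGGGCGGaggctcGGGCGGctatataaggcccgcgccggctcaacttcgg
UNC5C: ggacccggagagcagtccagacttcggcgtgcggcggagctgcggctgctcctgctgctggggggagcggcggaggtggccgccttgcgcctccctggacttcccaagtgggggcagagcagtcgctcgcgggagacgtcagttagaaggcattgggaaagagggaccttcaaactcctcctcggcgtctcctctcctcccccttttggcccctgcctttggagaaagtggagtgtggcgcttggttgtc
PLXND1: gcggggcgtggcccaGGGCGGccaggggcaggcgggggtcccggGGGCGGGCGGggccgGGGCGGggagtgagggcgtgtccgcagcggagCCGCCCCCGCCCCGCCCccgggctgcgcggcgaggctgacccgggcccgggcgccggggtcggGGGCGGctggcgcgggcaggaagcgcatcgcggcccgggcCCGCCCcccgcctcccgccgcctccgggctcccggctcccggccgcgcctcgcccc
The genes that fell were NRP2 (chr2:205682251-205682500, plus strand), EFNB2 (chr13:106535663-106535912, minus strand) and NTNG1 (chr1:107139838-107140087, plus strand).
NRP2: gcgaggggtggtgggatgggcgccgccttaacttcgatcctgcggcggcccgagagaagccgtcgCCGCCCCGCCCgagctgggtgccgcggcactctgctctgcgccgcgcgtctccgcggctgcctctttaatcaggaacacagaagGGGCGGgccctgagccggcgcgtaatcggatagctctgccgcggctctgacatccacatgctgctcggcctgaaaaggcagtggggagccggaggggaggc
EFNB2: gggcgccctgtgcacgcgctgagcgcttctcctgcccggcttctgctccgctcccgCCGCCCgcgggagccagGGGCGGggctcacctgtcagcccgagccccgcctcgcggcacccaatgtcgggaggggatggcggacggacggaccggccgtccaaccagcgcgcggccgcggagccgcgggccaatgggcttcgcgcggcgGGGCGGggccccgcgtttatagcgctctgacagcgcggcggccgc
NTNG1: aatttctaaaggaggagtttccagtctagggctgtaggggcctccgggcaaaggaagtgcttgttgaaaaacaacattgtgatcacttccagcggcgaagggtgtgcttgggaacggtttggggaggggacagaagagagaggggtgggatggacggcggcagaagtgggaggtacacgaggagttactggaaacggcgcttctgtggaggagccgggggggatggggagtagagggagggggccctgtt
PLXND1 held 9 GC boxes and 41 CpG dinucleotides in this window, SLIT2 5 and 30, NRP2 3 and 29, and EFNB2 3 and 40. UNC5C and NTNG1 held 0 GC boxes, with 17 and 10 CpG dinucleotides. Rising and falling genes therefore both included promoters with and without the motif.

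A promoter was found for 37 of the 45 genes. A GC box was present in 30 of the 37 (81.1%), against 42.6% of all 35116 promoters, which were not restricted to genes on the array. The 37 were reduced to 1 promoter per gene and the 35116 were not, so the sets are not fully alike. The median GC content was 67.6% in the 37 promoters, against 58% in all, and its part in the GC box share was not tested. By response to doxycycline in shHDAC2 cells a GC box was present in 10 of 12 promoters of genes that rose. It was present in 4 of 7 of genes that fell and 16 of 18 of genes that did not pass. A CCAAT box (CCAAT, either strand) was present in 15 of the 37 (40.5%, against 32% of all). The other 4 motifs searched were each in 3 or fewer: the TATA box (TATAAA) in 1, the E-box (CACGTG) in 1, the hypoxia response core (ACGTG, which every CACGTG contains) in 3 and the AP-1 site (TGANTCA) in 1. The corresponding shares of all promoters were 10.7%, 6.34%, 18.5% and 6.57%. These are matches of letters and show no binding.

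The neuropilins, co-receptors of class 3 semaphorins and of VEGF, both fell. NRP2 (transcript cluster 16889879, chromosome 2) gave 5.06 and 4.93 in shControl DOX(-), 5.56 and 5.71 in shControl DOX(+), 7.46 and 7.46 in shHDAC2 DOX(-) and 4.32 and 4.28 in shHDAC2 DOX(+). Its shHDAC2 DOX(-) arrays were the highest and its shHDAC2 DOX(+) arrays the lowest of all 8, with no overlap between any 2 groups. It fell 8.96-fold upon doxycycline in shHDAC2 cells (log2 fold change -3.16, SE 0.111, adjusted p = 1.36e-07). In shControl cells the value was 0.64 (unadjusted p = 0.000297, adjusted p = 0.550).

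NRP1 (cluster 16713187, chromosome 10) behaved differently. Its signals were 9.18 and 9.19 in shControl DOX(-), 9.33 and 9.32 in shControl DOX(+), 9.32 and 9.26 in shHDAC2 DOX(-), and 8.40 and 8.51 in shHDAC2 DOX(+). Here the shHDAC2 DOX(-) arrays lay in the range of the shControl arrays and the shHDAC2 DOX(+) arrays stood alone below the others. NRP1 fell 1.78-fold upon doxycycline in shHDAC2 cells (log2 fold change -0.83, SE 0.105, adjusted p = 0.000329). Without doxycycline shHDAC2 and shControl cells differed by 0.11 (95% interval -0.13 to 0.34, adjusted p = 0.517).

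Of the 9 plexins, the signalling receptors for semaphorins, 5 rose, 1 fell and 3 did not pass upon doxycycline in shHDAC2 cells. Over all clusters 15.0% rose and 15.6% fell. PLXND1, a receptor for semaphorin 3E known from vessel patterning, gave 7.95 and 8.06 in shControl DOX(-), 8.21 and 8.32 in shControl DOX(+), 5.12 and 5.50 in shHDAC2 DOX(-), and 7.83 and 7.92 in shHDAC2 DOX(+). It rose 5.90-fold (log2 fold change 2.56, SE 0.143, adjusted p = 2.36e-06), and its shHDAC2 DOX(-) arrays were far below all others. PLXNA2, a neuropilin partner, gave 7.43 and 7.46, then 7.30 and 7.28, then 5.27 and 5.20, and 6.92 and 6.94 in the same order of groups, and rose 3.23-fold (SE 0.103 on the log2 scale, adjusted p = 3.98e-06). Its shHDAC2 DOX(+) arrays remained under all 4 shControl arrays.

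PLXNA1, another neuropilin partner, gave 7.77 and 7.95 in shControl DOX(-), 8.03 and 8.25 in shControl DOX(+), 6.83 and 6.97 in shHDAC2 DOX(-), and 7.93 and 8.05 in shHDAC2 DOX(+), and rose 2.13-fold (adjusted p = 0.000215). PLXNB1, the receptor of semaphorin 4D, gave 5.37 and 5.58, 5.49 and 5.78, 4.54 and 4.44, and 5.74 and 5.37 across the same groups, a 2.09-fold rise (adjusted p = 0.000938). For both genes the shHDAC2 DOX(-) arrays were the 2 lowest, and the other 3 groups overlapped or lay close. PLXNB2, also a receptor of class 4 semaphorins, moved less: 8.10 and 8.13, 8.39 and 8.37, 7.66 and 7.82, and 8.27 and 8.44 (log2 fold change 0.62, adjusted p = 0.00310).

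PLXNA4 was the 1 plexin that fell. This receptor, which also pairs with neuropilins, gave 4.17 and 3.70 in shControl DOX(-), 3.83 and 3.78 in shControl DOX(+), 5.45 and 5.33 in shHDAC2 DOX(-), and 3.79 and 3.96 in shHDAC2 DOX(+). It fell 2.86-fold (log2 fold change -1.52, SE 0.159, adjusted p = 0.000107). PLXNA3 (0.45, adjusted p = 0.0573), PLXNB3 (-0.09, 95% interval -0.44 to 0.27) and PLXNC1 (-0.04, 95% interval -0.30 to 0.23) did not pass.

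SLIT2 had the largest change of the 45 genes. It encodes a secreted repellent that keeps axons from crossing the midline. SLIT2 (cluster 16965377, chromosome 4) gave 8.33 and 8.27 in shControl DOX(-), 8.38 and 8.40 in shControl DOX(+), 3.77 and 3.74 in shHDAC2 DOX(-), and 7.73 and 7.88 in shHDAC2 DOX(+). In untreated shHDAC2 cells its signal was close to the median of all signals, 3.658, and 23.4-fold below shControl DOX(-) (log2 fold change -4.55, SE 0.108, adjusted p = 2.99e-08). Upon doxycycline it rose 16.6-fold in shHDAC2 cells (log2 fold change 4.05, SE 0.108, adjusted p = 5.19e-08). Whether the shHDAC2 DOX(-) signals were above background is not known, as no detection calls were used, and both folds may be understated. The other Slits did not pass: SLIT1 changed by 0.32 (adjusted p = 0.124) and SLIT3 by -0.11 (95% interval -0.47 to 0.25).

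Netrin-1 and its repulsive receptor UNC5C both rose in shHDAC2 cells. UNC5C (cluster 16978054, chromosome 4) gave 7.26 and 7.35 in shControl DOX(-), 7.79 and 7.72 in shControl DOX(+), 4.37 and 4.44 in shHDAC2 DOX(-), and 7.20 and 7.28 in shHDAC2 DOX(+). It rose 7.12-fold (log2 fold change 2.83, SE 0.107, adjusted p = 2.18e-07), to signals that overlapped those of the shControl DOX(-) arrays. NTN1, the classical netrin, gave 5.09 and 5.25, 4.97 and 5.23, 4.53 and 4.41, and 5.07 and 5.21 in the same order, a rise of 0.67 on the log2 scale (SE 0.131, adjusted p = 0.00393). Its shHDAC2 DOX(-) arrays were the 2 lowest of the 8.

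UNC5B, the UNC5 receptor best known from endothelial cells, went the other way. It gave 4.93 and 5.35 in shControl DOX(-), 5.10 and 4.79 in shControl DOX(+), 5.82 and 5.90 in shHDAC2 DOX(-), and 4.92 and 4.99 in shHDAC2 DOX(+), and fell 1.86-fold (log2 fold change -0.90, adjusted p = 0.00267). UNC5A (0.43, adjusted p = 0.125) and UNC5D (0.04, adjusted p = 0.886) did not pass, and UNC5D was below the median signal in every group.

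The membrane-anchored netrin-G proteins, which bind NGL adhesion molecules in place of DCC, split. NTNG1 gave 2.93 and 2.62 in shControl DOX(-), 2.82 and 2.83 in shControl DOX(+), 4.68 and 4.66 in shHDAC2 DOX(-), and 2.71 and 2.73 in shHDAC2 DOX(+), and fell by 1.94 on the log2 scale (SE 0.126, adjusted p = 5.60e-06). It was above the median signal in the shHDAC2 DOX(-) arrays alone. No detection calls were used here, so whether the dimmer signals were above background is not known, and a difference from them may be understated. NTNG2 gave 5.84 and 6.10, 6.04 and 5.98, 5.76 and 5.16, and 6.08 and 5.98, and rose by 0.57 (SE 0.188, adjusted p = 0.0464). Its 2 shHDAC2 DOX(-) arrays were far apart, and without replicate 2 of that group the value was 0.27 (adjusted p = 0.259). Its call was lost in 7 of the 8 fits that left out 1 array, with shHDAC2 DOX(-) replicate 1 as the exception. Among the other netrins, NTN4 of basement membranes changed by 0.40 (adjusted p = 0.0503), NTN5 by 0.12 and NTN3 by 0.09, and none passed.

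Ephrin-B2 fell while its receptor EphB4 rose. EFNB2, a transmembrane ephrin that marks arteries, gave 5.12 and 5.28 in shControl DOX(-), 5.11 and 5.33 in shControl DOX(+), 7.24 and 7.53 in shHDAC2 DOX(-), and 4.74 and 5.17 in shHDAC2 DOX(+). It fell 5.36-fold in shHDAC2 cells (log2 fold change -2.42, SE 0.171, adjusted p = 1.01e-05). EPHB4, the ephrin-B2 receptor that marks veins, gave 7.25 and 7.32, 7.45 and 7.36, 4.28 and 4.98, and 6.84 and 7.03 in the same order. It rose 4.92-fold (log2 fold change 2.30, SE 0.202, adjusted p = 3.82e-05). The 2 genes were therefore opposite in shHDAC2 DOX(-) cells, where EFNB2 was above and EPHB4 below all other arrays.

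Of the 13 Eph receptors 2 rose, 2 fell and 9 did not pass. The share past the threshold, 30.8%, was close to the 30.6% of all clusters. EPHA4, which binds ephrins of both classes, gave 6.51 and 6.60 in shControl DOX(-), 6.94 and 6.82 in shControl DOX(+), 4.38 and 4.50 in shHDAC2 DOX(-), and 6.21 and 6.38 in shHDAC2 DOX(+), a 3.63-fold rise (log2 fold change 1.86, SE 0.118, adjusted p = 4.96e-06). EPHA5, a receptor of A-class ephrins, gave 2.83 and 2.63, 2.98 and 2.74, 4.55 and 4.16, and 2.83 and 2.80, and fell by 1.54 on the log2 scale (SE 0.156, adjusted p = 8.97e-05). EPHA3, which binds ephrin-A5, gave 2.41 and 2.52, 2.35 and 2.54, 3.42 and 4.11, and 2.32 and 2.39, and fell by 1.42 (SE 0.200, adjusted p = 0.000651). Both falling receptors were below the median signal outside the shHDAC2 DOX(-) group, and the 2 EPHA3 arrays of that group were far apart (SD 0.49). The limit given for NTNG1 holds for these values too.

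EPHA2, the Eph receptor most studied in glioblastoma, was bright and changed by -0.02 (95% interval -0.31 to 0.26). The other 8 Eph receptors that did not pass were EPHA1, EPHA6, EPHA7, EPHA8, EPHA10, EPHB1, EPHB3 and EPHB6, with log2 fold changes from -0.40 (EPHA7) to 0.35 (EPHB3). Of these EPHA6, EPHA7, EPHA10 and EPHB1 were below the median signal in every group mean.

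Of the 8 ephrins 4 rose, 2 fell and 2 did not pass (over all clusters 15.0% rose and 15.6% fell). EFNB3, the third transmembrane ephrin, gave 5.05 and 5.31 in shControl DOX(-), 5.37 and 5.31 in shControl DOX(+), 4.09 and 4.19 in shHDAC2 DOX(-), and 4.97 and 5.17 in shHDAC2 DOX(+), and rose 1.91-fold (adjusted p = 0.000610). EFNA4, a lipid-anchored ephrin, gave 5.99 and 5.90, 6.09 and 6.34, 4.97 and 5.25, and 5.79 and 6.15, and rose 1.82-fold (adjusted p = 0.00306). EFNA2, also lipid-anchored, gave 5.74 and 5.78, 5.64 and 5.86, 4.98 and 5.11, and 5.51 and 5.56, and rose 1.40-fold (adjusted p = 0.0123, lost without shHDAC2 DOX(-) replicate 1 or DOX(+) replicate 2, up to 0.0717). In these 3 genes the shHDAC2 DOX(-) arrays were the 2 lowest of the 8.

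EFNA5, a ligand of EPHA3 and EPHA5, fell together with these receptors. It gave 6.35 and 6.45 in shControl DOX(-), 6.33 and 6.46 in shControl DOX(+), 7.05 and 6.94 in shHDAC2 DOX(-), and 6.37 and 6.41 in shHDAC2 DOX(+), a 1.53-fold fall (log2 fold change -0.61, SE 0.111, adjusted p = 0.00277). EFNA1, the main ligand of EPHA2, gave 4.72 and 5.15, 5.33 and 5.74, 4.78 and 4.68, and 5.25 and 5.35, and rose by 0.57 (SE 0.176, adjusted p = 0.0375). This call was lost without any 1 of the 4 shHDAC2 arrays (adjusted p up to 0.152). Its change in shControl cells was of like size, 0.60 (unadjusted p = 0.00833, adjusted p = 0.736). EFNB1 (-0.06, 95% interval -0.35 to 0.22) and EFNA3 (-0.01, 95% interval -0.43 to 0.41) did not pass.

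The response to doxycycline differed between shHDAC2 and shControl cells for 18 of the 45 genes by limma's interaction term, against 19.6% of all clusters. It was higher in shHDAC2 cells for 10 genes (9.57% of all clusters) and lower for 8 (10.04% of all clusters). The largest differences were 3.97 for SLIT2 (SE 0.153, adjusted p = 9.71e-07) and -3.80 for NRP2 (SE 0.157, adjusted p = 1.20e-06). Of the 24 genes past the threshold in shHDAC2 cells, 6 did not pass here, namely EFNA1 (-0.03), EFNA2 (0.50), EFNA4 (0.59), NTNG2 (0.53), PLXNB2 (0.35) and UNC5B (-0.70).

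Without doxycycline 21 of the 45 genes differed between shHDAC2 and shControl cells, against 30.01% of all clusters. These cells had received no doxycycline, but HDAC2 itself differed between them, as given above. In shHDAC2 cells 8 were higher (13.7% of all clusters) and 13 lower (16.3% of all clusters). The receptors PLXND1 (6.48-fold), EPHB4 (6.30-fold), PLXNA2 (4.62-fold) and EPHA4 (4.33-fold) were lower in shHDAC2 cells with SLIT2 and UNC5C (7.44-fold). NRP2 (5.51-fold) and EFNB2 (4.54-fold) were higher, as were the dim NTNG1 (by 1.89 on the log2 scale) and EPHA5 (by 1.63). This comparison shares the shHDAC2 DOX(-) arrays with the response to doxycycline in shHDAC2 cells, so the opposite signs of both are no independent result.

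With doxycycline 5 of the 45 genes differed between shHDAC2 and shControl cells, against 3.67% of all clusters (590). The latter count rests on single arrays, with 114 clusters when shControl DOX(+) replicate 1 was left out and 122 when its replicate 2 was. When replicate 1 of the shHDAC2 DOX(+) arrays was left out 97 clusters passed, and 310 when its replicate 2 was. All 5 were lower in shHDAC2 cells (2.89% of all clusters), and 0 were higher (0.770% of all clusters). NRP2 was 2.53-fold lower (log2 fold change -1.34, SE 0.111, adjusted p = 0.000746) and NRP1 1.83-fold lower (-0.87, SE 0.105, adjusted p = 0.00415). EPHA4 (-0.59, SE 0.118, adjusted p = 0.0313), SLIT2 (-0.58, SE 0.108, adjusted p = 0.0224) and UNC5C (-0.52, SE 0.107, adjusted p = 0.0342) were lower as well. In each of these genes both shHDAC2 DOX(+) arrays lay below both shControl DOX(+) arrays. UNC5C overlapped with the shControl DOX(-) arrays, whereas the other 4 genes lay below all 4 shControl arrays.

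**Figure D3:**
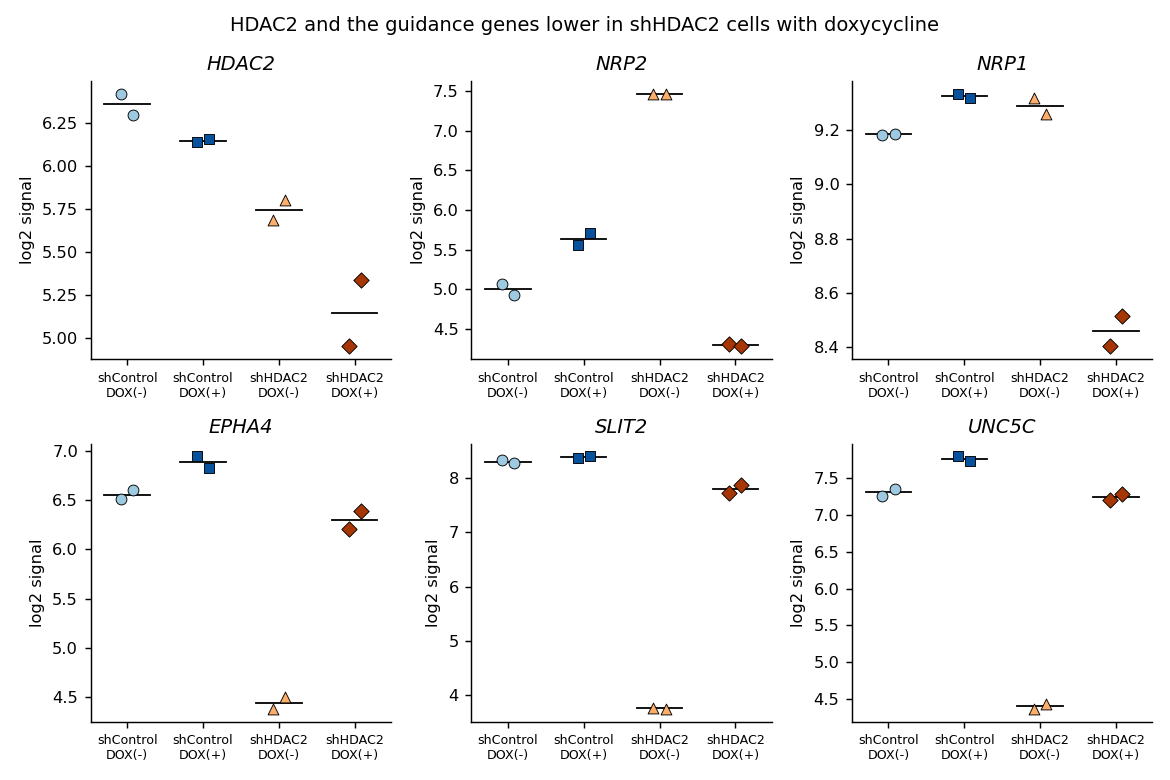
Log2 signal (y axis, a scale of its own in each panel that does not start at 0) of HDAC2 and of the 5 guidance genes whose shHDAC2 DOX(+) signals were lower than those of shControl DOX(+), with 1 point per array, 2 arrays per group and the group mean as a bar. HDAC2, NRP1 and NRP2 are lowest in shHDAC2 DOX(+), and for NRP2 the shHDAC2 DOX(-) arrays are the highest. In SLIT2, UNC5C and EPHA4 the shHDAC2 DOX(-) arrays are instead the lowest.

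The shHDAC2 DOX(-) arrays are not compared here, so in the fit they enter these 5 calls only through the spread shared by all groups. The deposited signals had been quantile-normalized across arrays beforehand, and the part of these arrays in that step was not tested. With the shHDAC2 DOX(-) arrays left out of the fit the count was 5 (against 3.37% of all clusters). With only the arrays compared it was 2 (against 2.13%). The 5 calls were also not firm against the loss of a compared array. Without shControl DOX(+) replicate 1, shControl DOX(+) replicate 2, shHDAC2 DOX(+) replicate 1 or shHDAC2 DOX(+) replicate 2, 2 of the 5 calls were left, and without either shControl DOX(-) array 3 were left. NRP2 (-1.41 to -1.27) and NRP1 (-0.92 to -0.81) passed in each of the 8 fits that left out 1 array. EPHA4 was lost in 6, UNC5C in 6 and SLIT2 in 4 of them.

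**Figure D4:**
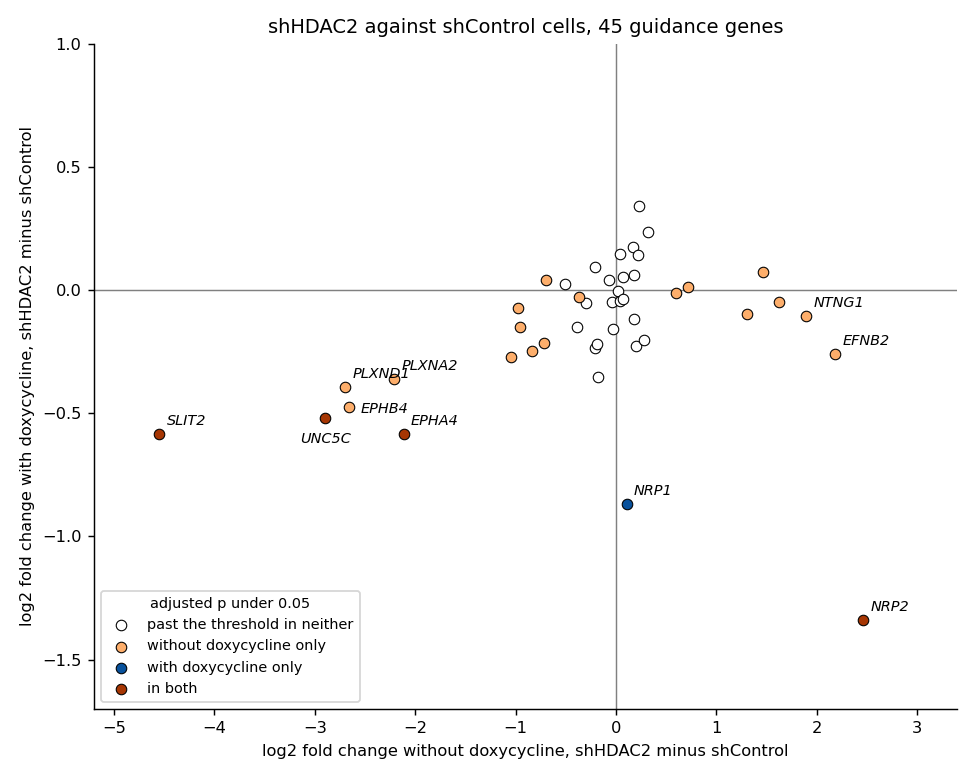
Log2 fold change of shHDAC2 minus shControl cells without doxycycline (x axis) and with doxycycline (y axis) for the 45 guidance genes, filled by the comparison in which the adjusted p was under 0.05. The x values spread from -4.55 (SLIT2) to 2.46 (NRP2) and the y values from -1.34 (NRP2) to 0.34 (SLIT3), and NRP1 is the 1 gene that passed with doxycycline and not without it.

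The other genes of these pathways were followed as 2 lists. Of 37 clusters of co-receptors and other guidance cues, 14 passed upon doxycycline in shHDAC2 cells (37.8%, against 30.6% of all clusters), 9 higher (24.3%, against 15.0%) and 5 lower (13.5%, against 15.6%). Their median log2 fold change was 0.0373, against -0.0143 for all clusters. L1CAM, an adhesion molecule that associates with neuropilin-1, gave 8.54 and 8.63 in shControl DOX(-), 8.76 and 8.87 in shControl DOX(+), 4.61 and 4.41 in shHDAC2 DOX(-), and 8.35 and 8.59 in shHDAC2 DOX(+), and rose by 3.96 on the log2 scale (adjusted p = 9.03e-08). The reelin receptor gene VLDLR gave 5.16 and 5.17, 5.66 and 5.65, 7.14 and 7.29, and 4.05 and 4.56, the same order of groups as NRP2, and fell by 2.91 (adjusted p = 2.32e-06). DCC, the attractive netrin receptor, gave 3.04 and 2.98, 2.84 and 2.85, 5.69 and 5.61, and 3.18 and 2.87, and fell by 2.62 (adjusted p = 9.48e-07). It was below the median signal outside shHDAC2 DOX(-). Of the FLRT ligands of UNC5 receptors, FLRT3 rose by 1.46 (adjusted p = 0.000228) and FLRT2 fell by 1.03 (adjusted p = 0.00149).

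Of 45 clusters of effectors and processing enzymes of these receptors, 18 passed upon doxycycline in shHDAC2 cells (against 30.6% of all clusters), 10 higher (22.2%, against 15.0%) and 8 lower (17.8%, against 15.6%), with a median of -0.0366. Most of the list is intracellular, whereas ADAM12, which fell by 4.95 (adjusted p = 5.52e-07), encodes a membrane protease. The collapsin response mediators DPYSL5 (1.70, adjusted p = 0.000234) and CRMP1 (1.5, adjusted p = 2.37e-05), which act downstream of semaphorins, rose, and so did the adaptor NCK2 (1.69, adjusted p = 7.27e-05). In each of these 4 genes both shHDAC2 DOX(-) arrays lay outside the range of the other 6. With doxycycline 2 of the 37 clusters (5.41%) and 1 of the 45 (2.22%) were lower in shHDAC2 than in shControl cells, close to the 2.89% of all clusters, and 0 were higher. They were VLDLR (-1.36, adjusted p = 0.00415), MET (-1.08, adjusted p = 0.00200), the HGF receptor that partners with B-class plexins, and DPYSL3 (-0.91, adjusted p = 0.0130), a further collapsin response mediator. MET, like NRP1, was lowest in shHDAC2 DOX(+), with signals of 9.37 and 9.22 in shControl DOX(-), 9.29 and 9.18 in shControl DOX(+), 9.08 and 9.09 in shHDAC2 DOX(-), and 8.14 and 8.18 in shHDAC2 DOX(+).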

How the data were processed

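RNA of A172 cells from 4 groups of 2 biological replicates was hybridized to Affymetrix Human Gene 2.0 ST arrays. The authors normalized the scans by RMA in Expression Console and deposited log2 signals, background-corrected and quantile-normalized across arrays, which would hide a change shared by most transcripts. For the tools and the build, no version is given in the sources used here. The table holds 53617 transcript clusters. Of these, 16098 (14884 genes) carry a single symbol in the annotation of the platform, which can be old, and 37519 are unnamed here. Symbols starting with SLIT, PLXN, NRP, NTN, EFNA, EFNB, EPHA or EPHB and ending in a member number, and UNC5A to UNC5D, were taken. UNC50 (a different kind of protein), UNC5CL and antisense or intronic transcripts were left out. Members, lists and comparisons were chosen with earlier results of these data known.

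Comparisons used limma 3.58.1 (R 4.3.3) with a mean for each group over all 8 arrays, 4 residual degrees of freedom and 4.83 from the prior. P-values were adjusted by Benjamini-Hochberg over the 16098 clusters. The threshold was an adjusted p of 0.05, two-sided. Intervals are 95% intervals of the same model. The p-values measure the spread between the labelled replicates, and the number of arrays limits every value. Values in every array are given for members past the threshold in at least 1 comparison. From each of the 2 lists of partner genes, the 4 with the largest change among those past the threshold in shHDAC2 cells are named, and MET, DPYSL3 and FLRT2 were added after their values were seen. Promoters came from RefSeq (GRCh38.p14), and 6 motifs were searched on both strands. The fit was tested on simulated data. The alternatives tried were a block for the replicate number, omission of each array in turn, a fit restricted to the compared arrays, a filter on dim clusters, every row, a second quantile normalization, median centring, a variance trend with robust moderation and the methods' t-test. A fit without the shHDAC2 DOX(-) arrays and a comparison of shHDAC2 DOX(+) with all 4 shControl arrays were chosen after seeing the data.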

Additional observations from a re-analysis of the deposited data

Results flagged for a closer look

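The response to doxycycline differed between shHDAC2 and shControl cells, by limma's test of the difference itself with an adjusted p under 0.05, for 18 guidance genes. Every value here is the log2 response in shHDAC2 cells minus that in shControl cells. Among the ligands it was higher in shHDAC2 cells for SLIT2 (3.97, adjusted p = 9.71e-07), EFNB3 (0.77, adjusted p = 0.0180) and NTN1 (0.74, adjusted p = 0.0223), and lower for EFNB2 (-2.44, adjusted p = 0.000174), NTNG1 (-2.00, adjusted p = 9.08e-05) and EFNA5 (-0.61, adjusted p = 0.0255). Among the receptors it was higher for UNC5C (2.38, adjusted p = 1.24e-05), PLXND1 (2.30, adjusted p = 8.44e-05), EPHB4 (2.18, adjusted p = 0.000836), PLXNA2 (1.85, adjusted p = 4.10e-05), EPHA4 (1.53, adjusted p = 0.000294), PLXNB1 (0.90, adjusted p = 0.0222) and PLXNA1 (0.81, adjusted p = 0.0132). It was lower for NRP2 (-3.80, adjusted p = 1.20e-06), EPHA5 (-1.67, adjusted p = 0.000869), EPHA3 (-1.40, adjusted p = 0.00831), PLXNA4 (-1.39, adjusted p = 0.00269) and NRP1 (-0.97, adjusted p = 0.00191).

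In 17 of the 18 genes the shHDAC2 DOX(-) arrays were the group that lay outside the range of the other 6, and NRP1 was the exception. When 1 array was left out, the call of EFNA5 was lost in 6 of 8 fits, those of EFNB3, NTN1 and PLXNB1 in 4 each and that of PLXNA1 in 2, while the other 13 passed in all 8.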

How the results depend on the processing

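No fit that left out 1 array, changed the normalization or used all 4 shControl arrays turned the direction of a called gene or of HDAC2. The other alternatives keep the same difference of group means, so they could not turn it. With the replicate number as a block, 26 guidance genes passed upon doxycycline in shHDAC2 cells, 0 in shControl cells, 19 for the difference, 5 with doxycycline and 21 without. In the same order the shares of all clusters with the block were 32.1%, 0%, 20.7%, 3.88% and 31.6%. NTNG2 was the 1 gene call lost with the block (adjusted p = 0.0557). Deviations of same-numbered arrays correlated at 0.00669 to 0.214 between groups. Whether same-numbered replicates were handled together is not known from the labels. Leaving out 1 array gave 21 to 25 guidance genes upon doxycycline in shHDAC2 cells, 14 to 17 for the difference, 19 to 21 without doxycycline and 2 to 5 with doxycycline. With doxycycline, the fit on only the arrays compared gave 2 (against 2.13% of all clusters). Every row of the table gave 2 (against 0.380% of all rows), where more rows were adjusted over. The methods' t-test after adjustment called 5 guidance genes in shHDAC2 cells (1.51% of all clusters), 3 between untreated cells (1.13%) and 0 with doxycycline (0%). Unadjusted it called 10 with doxycycline (against 12.2% of all clusters) and 6 in shControl cells (against 6.18%). For the partner lists the adjusted t-test called 2 in shHDAC2 cells, 1 between untreated cells and 0 with doxycycline, and unadjusted 10 with doxycycline and 7 in shControl cells. The 3 partner calls with doxycycline became 5 among brighter clusters, 7 with a variance trend and 6 against all 4 shControl arrays. The cause of these shifts was not tested. Other totals of called guidance genes and of called partner clusters stayed within 1.5 times. Counts by direction moved further in 2 limma fits: for the difference, 10 higher genes became 6 without shControl DOX(-) replicate 2, and without doxycycline 8 higher became 5 among brighter clusters. Of all clusters, 590 calls with doxycycline became 97 to 543 without 1 array, 343 on only the arrays compared, 204 over every row, 931 among brighter clusters, 1159 with a variance trend and 959 against all 4 shControl arrays. Over every row, 4931 calls in shHDAC2 cells became 7828 and 4831 between untreated cells became 7636. The adjusted t-test gave 243, 182 and, with doxycycline, 0 (unadjusted 1970).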

Other observations

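The guidance ligands EFNA1 and NTN4 had similar values in both cell lines upon doxycycline. EFNA1 changed by 0.57 in shHDAC2 and 0.60 in shControl cells, with a difference of -0.03 (95% interval -0.59 to 0.54), and NTN4, a netrin of basement membranes, by 0.40 and 0.43, with a difference of -0.03 (95% interval -0.46 to 0.40). EFNA1 passed in shHDAC2 cells (adjusted p = 0.0375) and neither gene passed in shControl cells (adjusted p = 0.736 and 0.754), and both intervals allow a difference of about the size of the changes themselves. When shHDAC2 DOX(+) cells were compared with all 4 shControl arrays, a comparison chosen after seeing the data, NRP2 (-1.02, adjusted p = 0.000863), NRP1 (-0.80, adjusted p = 0.00214), SLIT2 (-0.54, adjusted p = 0.0124), PLXNA2 (-0.44, adjusted p = 0.0237) and EPHA4 (-0.42, adjusted p = 0.0475) were lower. UNC5C did not pass there (-0.29, adjusted p = 0.115).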
